A study of Mus musculus with 9 samples.

Results

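The Hox cluster genes were followed in the developing face and palate of mouse embryos (orofacial tissue) on gestation days (GD) 12, 13 and 14. Members were the probe sets whose array annotation gave exactly 1 symbol of the Hoxa, Hoxb, Hoxc or Hoxd cluster, with the brightest probe set taken for each gene. They numbered 31 of 8251 genes with a single-symbol probe set, and came from 38 probe sets. Total RNA was hybridized to 9 one-colour oligonucleotide arrays, with 3 arrays for GD12, 3 for GD13 and 3 for GD14. No treatment or mutation is named in the labels. The strain, the pooling of embryos and litters, and the parts of the face that were dissected are not given in the sources used here, so p-values measure the spread between these samples, which may be technical. In such whole-tissue RNA, fewer cells of a type and less RNA per cell cannot be told apart.

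Hox genes encode homeodomain transcription factors that give cells their position along the axis from head to tail. They lie in 4 clusters, and their order along the chromosome matches the order of their expression along the body: low paralog numbers reach up to the hindbrain and the pharyngeal arches of the neck, and high numbers mark the lumbar, sacral, limb and genital regions. The neural crest cells that build the jaws and palate are known for forming their skeleton without Hox expression, while Hoxa2 is active from the second arch backwards. The members covered 10 genes of the Hoxa cluster, 9 of Hoxb, 5 of Hoxc and 7 of Hoxd, with paralog numbers between 1 and 13. In the mouse genome Hoxa lies on chromosome 6, Hoxb on chromosome 11, Hoxc on chromosome 15 and Hoxd on chromosome 2. The gene table lists 39 Hox cluster genes, and 8 of them were not analysed here for want of a single-symbol probe set.

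RefSeq promoter windows of the GRCm38.p6 build were matched by symbol for 20 of the 31 members, in 22 windows of the 250 bases before the transcription start. Windows of 4 genes that the results turn on are shown: Hoxa2, the gene of the second arch, Hoxb8, which lay above background on most arrays, Hoxd8, whose probe sets disagreed, and Hoxd13, a gene of digits and genitalia whose readings were under 10 on every array. Their windows are chr6:52164832-52165081 (minus strand), chr11:96281655-96281904 (plus strand), chr2:74704365-74704614 (plus strand) and chr2:74667975-74668224 (plus strand). Capitals mark CG dinucleotides, which are dense in the promoters that Polycomb proteins are known to occupy.
Hoxa2: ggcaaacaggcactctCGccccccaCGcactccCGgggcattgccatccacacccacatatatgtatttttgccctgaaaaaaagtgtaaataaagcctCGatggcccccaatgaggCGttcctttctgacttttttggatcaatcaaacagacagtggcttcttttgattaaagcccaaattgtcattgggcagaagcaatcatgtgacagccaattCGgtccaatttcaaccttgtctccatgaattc
Hoxb8: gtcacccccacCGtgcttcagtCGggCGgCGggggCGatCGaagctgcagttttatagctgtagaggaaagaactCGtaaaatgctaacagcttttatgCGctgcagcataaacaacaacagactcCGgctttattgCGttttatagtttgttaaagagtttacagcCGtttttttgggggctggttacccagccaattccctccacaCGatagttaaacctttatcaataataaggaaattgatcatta
Hoxd8: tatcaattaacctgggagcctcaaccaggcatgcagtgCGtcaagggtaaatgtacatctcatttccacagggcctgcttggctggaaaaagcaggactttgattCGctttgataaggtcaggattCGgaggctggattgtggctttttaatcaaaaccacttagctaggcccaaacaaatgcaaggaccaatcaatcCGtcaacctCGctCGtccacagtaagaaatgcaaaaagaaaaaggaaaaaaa
Hoxd13: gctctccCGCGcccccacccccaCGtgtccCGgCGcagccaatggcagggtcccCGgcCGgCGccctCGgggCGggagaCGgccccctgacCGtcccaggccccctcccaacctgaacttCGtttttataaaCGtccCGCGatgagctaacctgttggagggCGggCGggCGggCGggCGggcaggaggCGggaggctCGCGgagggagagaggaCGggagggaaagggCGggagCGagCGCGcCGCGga
The windows of Hoxa2 and Hoxd8 held 6 CG each, that of Hoxb8 held 12 and that of Hoxd13 held 31. Over the 22 Hox windows the number of CG ranged from 2 to 35 with a median of 13, against a median of 6 over 32851 windows of all genes, of which 31.5% held at least 13. Searched on both strands, with matches counted separately for each motif, the Pbx and Hox dimer motif TGATNNAT was in 18.2% of the Hox windows and 7.68% of all windows. It was found once in the Hoxa2 and once in the Hoxb8 window. The retinoid receptor half-site AGGTCA was in 18.2% of the Hox windows and 14% of all windows, among them that of Hoxd8. TATAAA was in 13.6% of the Hox windows and 12.4% of all windows, with 2 matches each in those of Hoxb8 and Hoxd13. The matches in Hoxd13 are a single overlapping site read on both strands, and those in Hoxb8 are separate sites. These letters describe the windows and were not set against any level.

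The value table holds no detection calls, so background was read from 55 genes of differentiated organs (such as liver, pancreas, testis and retina), each by its brightest probe set. The 90th percentile of their intensities over the 9 arrays was 67.5 in the deposited scaled units, and a gene counted as above background on a day when all 3 arrays exceeded it. By this rule, 2 of 31 Hox genes (6.45%) were above background on GD12, 2 (6.45%) on GD13 and 1 (3.23%) on GD14. Over all genes the shares were 48.9% on GD12, 50.2% on GD13 and 49.5% on GD14. The genes of other organs had 3.64%, 7.27% and 7.27% on the same days. The line rests on the brightest of them. Gh and Ctrb1 exceeded it on all 9 arrays, Lhb and Gdf9 on 8 and Hp on 6, while the median organ reading was 13.2. The Hox shares lay near those of the organ genes, which are low by construction, and far under those of all genes. On all 9 arrays together, 27 Hox genes (87.1%) never exceeded the background value, against 38% of all genes and 80% of the organ genes. Hoxa4 was the single member above it on all 9 arrays (3.23%, against 45.4% of all genes).

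A gene of the tissue can also lie under this line. Pax9, a transcription factor required for palate formation, averaged 53.8 ± 9.13, 38.5 ± 5.83 and 33.3 ± 10.2 on GD12, GD13 and GD14 (SD, n = 3 each) and was never above it. Of 14 measured markers of facial mesenchyme, 10 lay above background on all 9 arrays and 1, Pax9, on none. Intensities of different probe sets depend on their probes, so the genes were counted against background and not ranked among each other.

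**Figure D1:**
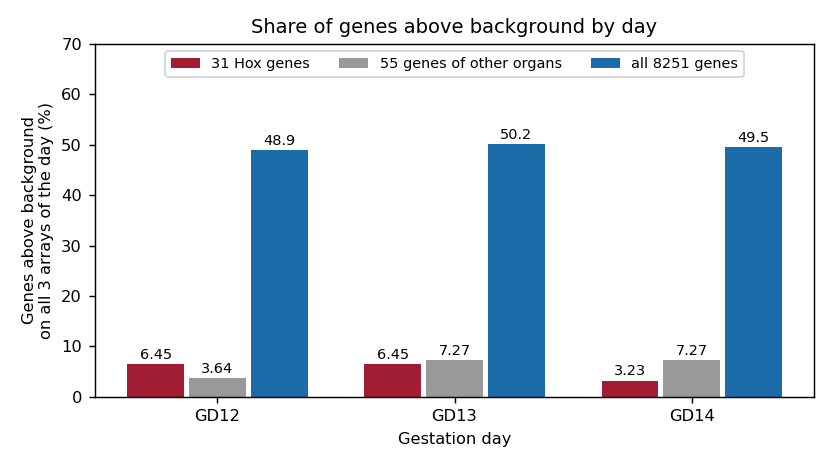
Bars give the percentage of genes above background on all 3 arrays of a day, for the 31 Hox genes, the 55 genes of other organs and all 8251 genes, by gestation day. The Hox bars stand at 6.45, 6.45 and 3.23%, beside 48.9 to 50.2% for all genes.

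By cluster, the genes above background on at least 1 array numbered 1 of 10 in Hoxa, 3 of 9 in Hoxb, 0 of 5 in Hoxc and 0 of 7 in Hoxd. By paralog number they were 1 of 8 among paralogs 1 to 4, 3 of 11 among paralogs 5 to 8 and 0 of 12 among paralogs 9 to 13. This count is looser than the rule of all 3 arrays of a day, and Hoxb5 and Hoxb7 entered it through 1 array each. By the stricter rule, Hoxb and paralogs 5 to 8 each had 1 gene on GD12, 1 on GD13 and 0 on GD14. Hoxa and paralogs 1 to 4 each had 1 gene on every day. For comparison, 38% of all genes and 80% of the organ genes were above background on no array. The posterior group, paralogs 9 to 13, ranged from 0.4 to 46.0 with a median of 4.8. The anterior group, paralogs 1 to 4, had a median of 16.35, and the middle group, paralogs 5 to 8, had 20.7. These medians describe different probe sets and were not tested.

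**Figure D2:**
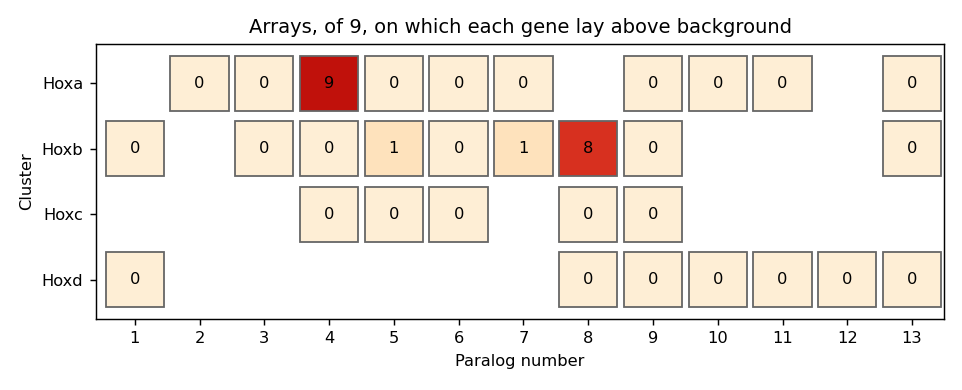
Each tile is a measured Hox gene, placed by cluster (rows) and paralog number (columns), and its number counts the arrays, of 9, above the background value. Counts of 9 and 8 stand at Hoxa4 and Hoxb8, counts of 1 at Hoxb5 and Hoxb7, and 0 elsewhere.

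In the Hoxa cluster, Hoxa2, which patterns the second pharyngeal arch, read 25.3, 35.3 and 38.5 on GD12, 41.2, 55.4 and 33.1 on GD13, with 34.1, 49.0 and 32.0 on GD14. The days overlapped and none of the arrays reached background. The log2 difference of Hoxa2 was 0.19 (SE 0.25) on GD14 against GD12, with a limma adjusted p of 0.764. Hoxa3, needed for derivatives of the third arch such as the thymus, lay between 2.4 and 24.1. Hoxa5, a gene of the respiratory tract and the cervical skeleton, lay between 5.7 and 20.7. Both had their highest values scattered over the days. Hoxa7 stayed between 2.2 and 5.9 and Hoxa13, a gene of digits and the genital tract, between 2.3 and 5.4. Hoxa10 and Hoxa11, which pattern the limb and the uterus, read 0.4 to 3.1 and 1.3 to 26.3.

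Hoxa4, which acts in the cervical skeleton, read 229.7, 355.1 and 281.4 on GD12, 205.7, 364.2 and 311.4 on GD13, with 237.7, 327.4 and 303.3 on GD14. Its means were 289 ± 63.0, 294 ± 80.7 and 289 ± 46.4 (SD, n = 3 each), and every day spanned nearly the same range. On GD14 against GD12 the log2 difference was 0.01 (SE 0.26), with a limma adjusted p of 0.988. This level came from 1 of 4 probe sets of the gene, 97747_r_at, in which the suffix r marks sets built with relaxed probe selection rules. The other 3 averaged 21.7, 14.5 and 1.6 over the 9 arrays and were never above background.

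The same held for the other member with readings mostly above background. Hoxb8, which acts in the thoracic spinal cord and in blood-forming cells, read 70.6, 89.5 and 131.5 on GD12, 77.4, 106.6 and 126.5 on GD13, with 62.0, 100.8 and 82.7 on GD14. A single array, the first of GD14, lay at or under background, and the days overlapped. The log2 difference was -0.22 (SE 0.28) on GD14 against GD12, with a limma adjusted p of 0.769. The probe set, 96418_r_at, again carries the suffix r, and the other set annotated to Hoxb8 alone read 1.5 to 20.1. A further set without the suffix r, annotated to both Hoxb7 and Hoxb8 and assigned to neither, had a median of 72.0 and exceeded background on 6 of 9 arrays. Hoxa6, the remaining member represented by an r set, read 27.8 to 56.4, while its other set stayed between 0.6 and 3.6. Among all genes whose brightest set was an r set, 36.6% were above background on GD12, against 49.2% of those with a plain set. An alternative chosen after the data were seen took the brightest plain set of each gene that has one. By it 0 Hox genes were above background on GD12, GD13 or GD14. Hoxa6, Hoxb8 and Hoxc9 have no plain set and were left out of this count, so it does not bear on Hoxb8. Probe sequences were not used here, so hybridization of these sets to other transcripts was not tested.

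**Figure D3:**
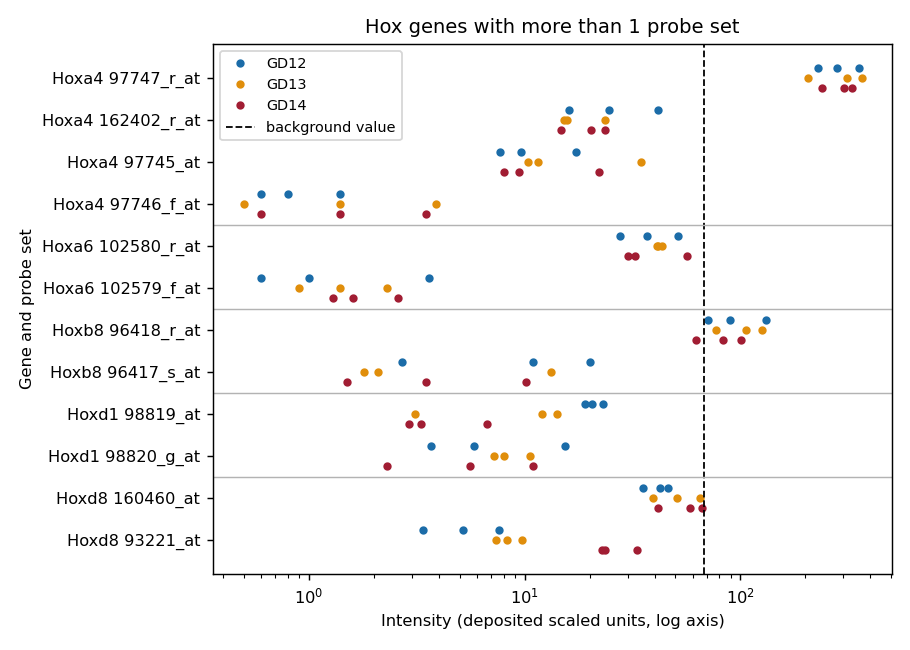
Points give the intensity on each array (log axis) for every probe set of the 5 Hox genes with more than 1 set, coloured by gestation day, and the dashed line is the background value of 67.5. The brightest sets of Hoxa4 and Hoxb8 lie right of the line, apart from 1 GD14 array of Hoxb8, while their other sets lie left of it, and the dimmer set of Hoxd8 stands apart on GD14.

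The other Hoxb genes lay under background on most or all arrays. Hoxb7 read 56.2, 48.8 and 52.1 on GD12, 42, 68.7 and 48.2 on GD13, with 38.3, 51.0 and 43.5 on GD14, so that 1 array of GD13 was above. Hoxb1, which specifies the hindbrain segment of the facial nerve, ranged from 4.6 to 39.3, and the hindbrain gene Hoxb3 from 6.6 to 30.3. The days overlapped for both. Hoxb4, known from blood stem cells, read 1.0 to 4.8, and Hoxb9 read 0.8 to 5.4. Hoxb13, a posterior gene of the tail and prostate, read 9.0 to 46.0. Its log2 difference on GD14 against GD12 was -0.84 (SE 0.37), with a limma adjusted p of 0.283.

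In the Hoxc cluster, Hoxc8, which directs the motor neurons of the forelimb level, read 12.1 to 34.2 and Hoxc6 read 1.8 to 27.8. Hoxc4 lay between 2.3 and 20.9, Hoxc5 between 4.4 and 15.3, and Hoxc9, a gene of thoracic motor neurons, between 0.7 and 16.9. The Hoxc9 set carries the suffix f, which marks sets that can bind several members of a gene family. None of the 5 reached background on any array. In the Hoxd cluster the limb and genital genes Hoxd11, Hoxd12 and Hoxd13 read 2.9 to 7.7, 0.8 to 15.9 and 1.4 to 3.0. Hoxd9 stayed between 6.0 and 11.8. Hoxd10 reached 45.1 on the second array of GD14, while the other arrays of that day read 5.5 and 5.8.

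**Figure D4:**
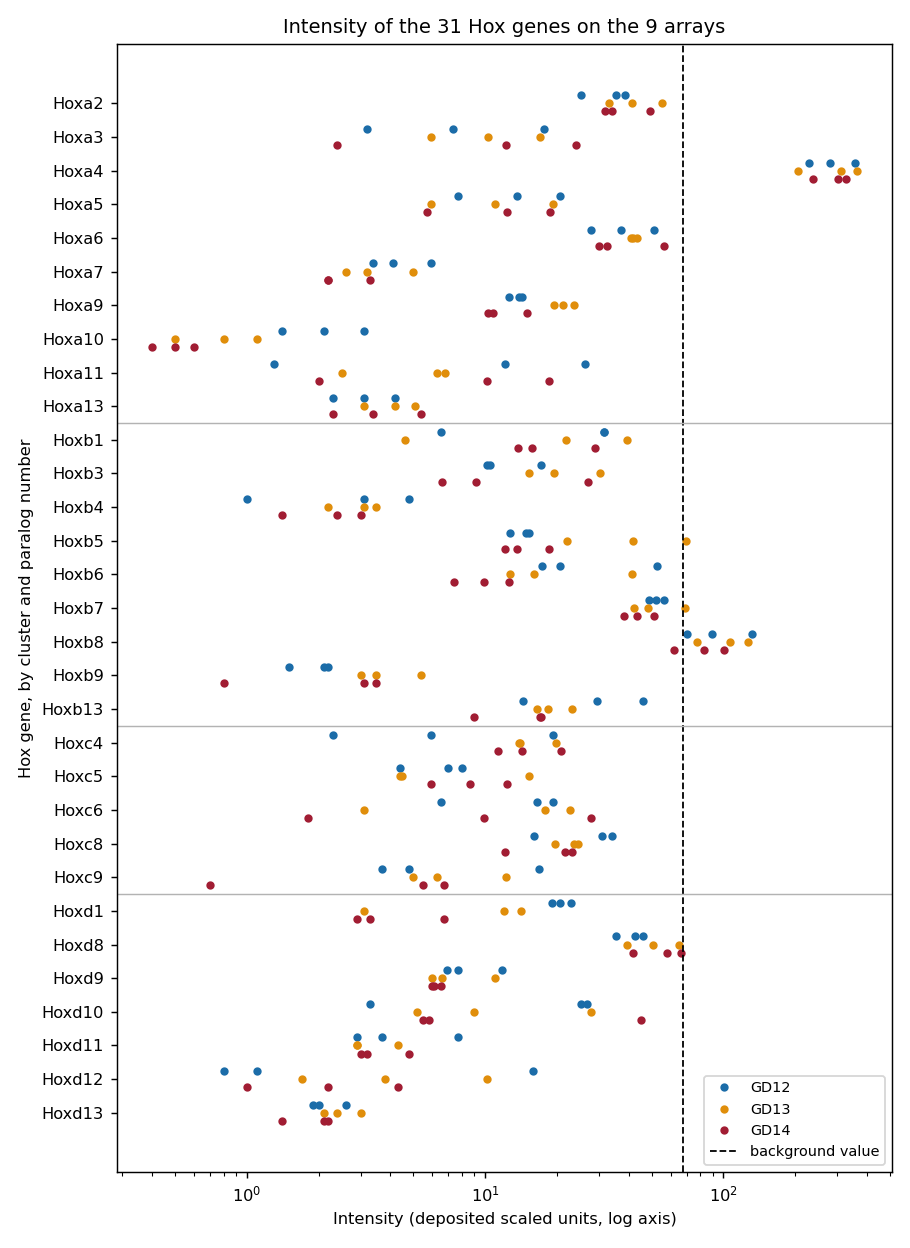
Points give the intensity of each of the 31 Hox genes on each of the 9 arrays (log axis), 3 arrays per gestation day, with genes ordered by cluster and paralog number. The dashed line is the background value of 67.5, and 27 genes lie wholly left of it.

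Whether any member differed between days was tested with limma over 9316 probe sets, with p-values adjusted over all of them by the Benjamini-Hochberg method. Probe sets with a mean log2 value at or under the 25th percentile (an intensity of about 10.45) were not tested, which left 17 members in and 14 out. In each of 5 tests 0 of the 17 passed an adjusted p of 0.05. Over all tested probe sets the share that passed was 0.644% for GD13 against GD12, 0.0429% for GD14 against GD13, 4.3% for GD14 against GD12, 2.59% for any difference over the 3 days and 0% for the difference between the daily steps. At an unadjusted p under 0.05 each test held 2 of the 17 members. The share of all tested probe sets there was 11%, 7.21%, 17.5%, 14.2% and 4.87% in the same order. The smallest adjusted p of a member was 0.169 for GD13 against GD12, 0.291 for GD14 against GD13, 0.207 for GD14 against GD12 and 0.111 over the 3 days. For the step difference it was 0.775. With 3 arrays per day these tests had limited reach, and a difference that did not pass is not shown to be absent.

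The median log2 difference of the 17 tested members was 0.01 on GD13 against GD12, -0.22 on GD14 against GD13 and -0.15 on GD14 against GD12. Over all tested probe sets the medians were 0.03, -0.03 and -0.02. Between GD14 and GD12 the members ran from -1.22 (Hoxb6) to 0.82 (Hoxc4), with 6 above 0 and 11 below.

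**Figure D5:**
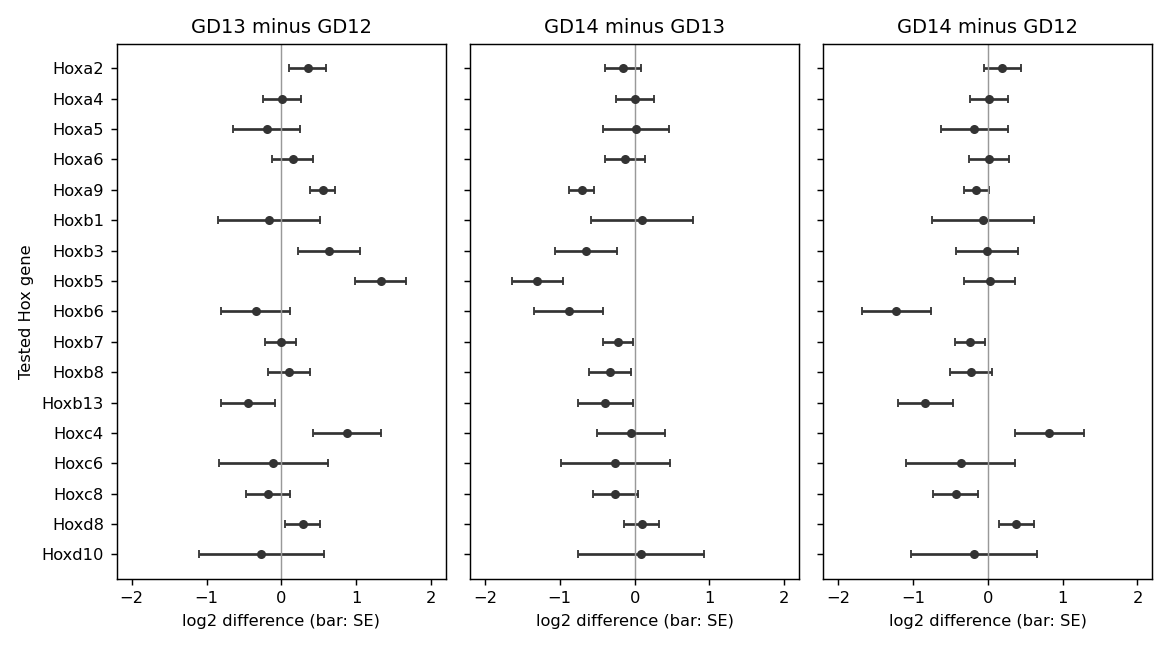
Points give the log2 difference of each of the 17 tested Hox genes and bars its standard error, in 3 panels for GD13 minus GD12, GD14 minus GD13 and GD14 minus GD12. Hoxb5 stands highest in the first panel (1.33) and lowest in the second (-1.30), and Hoxb6 is lowest in the third (-1.22).

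A few members, chosen here after their values were seen, had readings that did not overlap between days. Hoxb5, a gene of vagal neural crest and gut, read 14.8, 12.7 and 15.3 on GD12, 41.9, 22.0 and 69.4 on GD13, with 13.6, 18.6 and 12.1 on GD14. All GD13 arrays were above those of the other days, and 1 of them exceeded background. The log2 difference was 1.33 (SE 0.34) on GD13 against GD12, with a limma adjusted p of 0.169. It was -1.30 (SE 0.34) on GD14 against GD13, with a limma adjusted p of 0.330. Without the second array of GD13 the first of these passed (log2 1.72, limma adjusted p = 0.0486), as did the test over the 3 days (limma adjusted p = 0.0266).

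Hoxa9, known from posterior patterning and blood progenitors, had the same order of days, all under background. It read 12.6, 14.3 and 13.9 on GD12, 19.4, 23.6 and 21.3 on GD13, with 10.3, 15 and 10.8 on GD14. The log2 difference was 0.55 (SE 0.16) on GD13 against GD12 (limma adjusted p = 0.232) and -0.71 (SE 0.16) on GD14 against GD13 (limma adjusted p = 0.291). Hoxb6, a gene of trunk mesoderm, read 20.7, 17.4 and 52.5 on GD12, 16.0, 12.7 and 41.2 on GD13, with 12.6, 7.4 and 9.9 on GD14. The GD14 arrays lay under all others, by a narrow margin to GD13, and the third arrays of GD12 and GD13 were high. Its log2 difference on GD14 against GD12 was -1.22 (SE 0.46), with a limma adjusted p of 0.207. With the replicate number as a block the limma adjusted p was 0.0674.

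Egr2, a hindbrain gene that induces Hox transcription in the rhombomeres, was also highest on GD13. It read 15.2, 6.6 and 17.0 on GD12, 45.3, 52.9 and 70.2 on GD13, with 35.7, 36.5 and 24.7 on GD14. Egr2 rose on GD13 against GD12 (log2 1.93, SE 0.30, limma adjusted p = 0.0294), with 1 of its 9 readings above background. That call ended with the replicate number as a block (limma adjusted p = 0.0574), with quantile normalization (adjusted p = 0.0615), with no filter (adjusted p = 0.0522), with GD12 and GD13 fitted alone (adjusted p = 0.0922) and in 6 of the 9 omissions of a single array (adjusted p of up to 0.116, without GD13 replicate 2). It was kept without GD12 replicate 2, GD12 replicate 3 or GD14 replicate 3 (adjusted p of 0.0416 to 0.045). Its part in the readings of the Hox genes was not tested.

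Counted over all 31 members, readings that did not overlap were higher on GD13 than on GD12 for 3 members (9.68%, against 10.1% of all genes) and lower for 2 (6.45%, against 7.9%). On GD14 against GD13 they were higher for 0, against 7.11% of all genes, and lower for 3 (9.68%, against 5.62%). On GD14 against GD12 they were higher for 0, against 12.1% of all genes, and lower for 5 (16.1%, against 9.77%). Those 5 were Hoxa7, Hoxa10, Hoxb6, Hoxd1 and Hoxd9, all under background on every array.

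Hoxd1, which acts in sensory neurons in mice, also differed in this way below background. It read 23.0, 20.6 and 19.0 on GD12, 12.0, 14.1 and 3.1 on GD13, with 6.7, 3.3 and 2.9 on GD14. Its mean log2 value lay under the test filter, so it was not among the 17. With no filter the log2 difference on GD14 against GD12 was -1.73 (SE 0.38), with a limma adjusted p of 0.0535. It entered the filtered test when any 1 of 3 arrays was left out. It passed without GD13 replicate 3 (limma adjusted p = 0.00594) and did not pass without GD14 replicate 2 (adjusted p = 0.113) or GD14 replicate 3 (adjusted p = 0.0863). Its other probe set read 2.3 to 15.4 on the 9 arrays, with days that overlapped. The summed intensity of 14 neuronal markers was 2109, 2007 and 1467 on GD14 and 3835, 3901 and 1970 on GD12, lower on GD14 for each replicate number. Its part in the Hoxd1 readings was not tested.

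Hoxd8, a gene of the trunk also singled out after its values were seen, gave different answers by probe set. Its brighter set, 160460_at, read 46.0, 42.5 and 35.3 on GD12, 39.4, 50.8 and 64.9 on GD13, with 58.2, 66.5 and 41.6 on GD14, with overlap between days. The log2 difference was 0.38 (SE 0.23) on GD14 against GD12, with a limma adjusted p of 0.449. Its dimmer set, 93221_at, read 3.4, 7.6 and 5.2 on GD12, 9.7, 7.4 and 8.3 on GD13, with 23.6, 22.9 and 33.2 on GD14. The GD14 arrays stood above all others, and the set rose on GD14 against GD12 (log2 1.82, SE 0.22, limma adjusted p = 0.00274). Among the Hox probe sets tested it was the single one that passed any of the 5 tests, in this comparison and over the 3 days (limma adjusted p = 0.00819), and all its readings lay under background. The set passed the filter through its GD14 readings, and without any 1 of the GD14 arrays its mean fell under the filter. With no filter, where every probe set was tested whatever its level, it passed as well (limma adjusted p = 0.00544). It also passed with no filter and any single array of the 9 left out (log2 1.64 to 2.0, limma adjusted p of 0.00795 to 0.0267), an alternative chosen after the data were seen. With the replicate number as a block the limma adjusted p was 0.00768. Actin control probes give a 3' over 5' signal that reports on RNA integrity and labelling. Their ratios were 1.54, 1.76 and 1.42 on GD12, 2.09, 2.23 and 1.25 on GD13, with 2.44, 2.29 and 1.37 on GD14. The part of RNA quality in the Hoxd8 readings was not tested.

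The partners and regulators of the Hox proteins were measured beside them. Of the 6 cofactor genes on the array, which bind DNA together with Hox proteins, Pbx2 and Pbx3 lay above background on all 9 arrays. Pbx3 averaged 393 ± 55.1, 386 ± 94.7 and 356 ± 75.5 on GD12, GD13 and GD14 (SD, n = 3 each). Meis1 and Meis3, homeodomain partners of the same complexes, were above it on no array. Pknox1 was above it on 8 arrays and Meis2 on 1. Over all genes 45.4% were above it on all 9 arrays and 38% on none. In the cofactor list 0 of 6 tested genes passed in the GD13 against GD12, GD14 against GD13 or GD14 against GD12 comparison. The share of all tested probe sets that passed was 0.644%, 0.0429% and 4.3% in the same order.

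Polycomb genes, whose products keep Hox clusters silent, were above background on all 9 arrays for 12 of 18, where the share over all genes was 45.4%. Of 16 tested Polycomb genes 1 rose and 2 fell on GD14 against GD12, where 4.3% of all tested probe sets passed. Their median log2 difference was -0.35, against -0.02 over all tested probe sets. Cbx2, a subunit that reads the Polycomb mark, averaged 158 ± 31.9 on GD14 and 313 ± 15.9 on GD12 (SD, n = 3 each; limma adjusted p = 0.0137), and its dimmer set did not pass (log2 -1.55, adjusted p = 0.247). Jarid2, a partner of Ezh2, averaged 221 ± 38.9 on GD14 and 384 ± 42.9 on GD12 (SD, n = 3 each; limma adjusted p = 0.0423). Cbx6, another chromobox protein, averaged 517 ± 36.3 on GD14 and 270.5 ± 36.7 on GD12 (SD, n = 3 each; limma adjusted p = 0.024), and rose on its other probe set too (log2 0.93, adjusted p = 0.0358). The Cbx2 call ended without GD12 replicate 1 (adjusted p = 0.0577) or GD14 replicate 2 (adjusted p = 0.0559) and with GD12 and GD14 fitted alone (adjusted p = 0.0543). The Cbx6 call ended without 4 of the single arrays, at an adjusted p of up to 0.0965 without GD14 replicate 1. The Jarid2 call ended without any 1 of the 9 arrays (adjusted p of up to 0.145, without GD12 replicate 1). It also ended with no filter (adjusted p = 0.0742) and with GD12 and GD14 fitted alone (adjusted p = 0.111). Trithorax genes, which maintain active Hox genes, were above background on all 9 arrays for 6 of 8, among them Kmt2a, which averaged 218, 163 and 198 on the 3 days. In this list 0 of 7 tested genes passed in any of the comparisons between days.

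Of 13 listed genes tied to the start of Hox transcription, 7 were above background on no array, where the share over all genes was 38%. The caudal factors Cdx1, Cdx2 and Cdx4 were among these 7. The retinoid receptors Rarg and Rxrb were above background on all 9 arrays, and the other 4 genes on 1 to 7. Of 7 tested genes Egr2 rose on GD13 against GD12 and Aldh1a2, an enzyme of retinoic acid synthesis, fell on GD14 against GD12. The share of all tested probe sets that passed was 0.644% and 4.3% in these comparisons. Aldh1a2 averaged 64.2 ± 5.84 on GD14 and 125 ± 11.1 on GD12 (SD, n = 3 each; limma adjusted p = 0.012), and the call ended without GD12 replicate 1 (adjusted p = 0.0519) or GD14 replicate 2 (adjusted p = 0.0508). Genes at the borders of the Hox domain, such as Gbx2 and the cluster neighbours Evx1 and Evx2, were above background on no array for 5 of 6, and 0 of 2 tested genes passed.

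Cells that can carry Hox transcripts were checked through their markers. Over all genes 45.4% were above background on all 9 arrays and 38% on none. Of 11 trunk and limb genes 1, Meox2, was above background on all 9 arrays and 9 were above it on none. Of 9 hindbrain genes 1, Irx3, was above it on all arrays and 6 on none. The same counts were, for neurons, 3 and 5 of 14, for leukocytes 2 and 6 of 13, for erythroid and blood progenitor cells 3 and 4 of 11, and for oral epithelium 4 and 3 of 10. On GD14 against GD12, 5 of 9 tested leukocyte genes rose, 3 of 10 erythroid genes fell, 2 of 7 epithelial genes rose, 1 of 12 neuronal genes fell and 1 of 14 facial mesenchyme genes fell, while 0 of 5 trunk and limb genes passed. Over all tested probe sets 4.3% passed in this comparison. The 3 erythroid genes that fell were the globins Hba-x, Hbb-y and Hbb-bh1. Other genes of that list did not pass, among them Hba-a1 (log2 0.09, limma adjusted p = 0.86) and Alas2 (log2 1.14, limma adjusted p = 0.0589). The median log2 difference of the tested erythroid list was -0.36. Without single arrays the calls ended for the epithelial gene Perp (adjusted p of up to 0.152), the neuronal gene Mapt (up to 0.11), the mesenchymal gene Msx1 (up to 0.0671) and the macrophage gene Cd68 (up to 0.116). The Perp call also ended with quantile normalization (adjusted p = 0.0526) and median scaling (adjusted p = 0.0781). It ended as well with no filter (adjusted p = 0.0786) and an added value of 1 (adjusted p = 0.0512). That of Cd68 also ended with median scaling (adjusted p = 0.0559) and no filter (adjusted p = 0.0533). With GD12 and GD14 fitted alone the calls of Perp, Mapt, Msx1 and Cd68 ended (adjusted p = 0.124, 0.0858, 0.0615 and 0.0698). The other 2 sets of Mapt did not pass (adjusted p = 0.0758 and 0.831), nor did the other set of C1qb, a complement gene among the leukocyte calls (adjusted p = 0.998). The summed intensity of the leukocyte genes was 927 to 1063 on GD14 and 455 to 562 on GD12. The part of these cells in the Hox readings was not tested.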

How the data were processed

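The authors deposited 1 intensity per probe set and array, a linear value on a common scale: after trimming 2% of probe sets at each end, every array averaged 150.1. The software behind the intensities is not given in the sources used here. Array medians lay between 47.15 and 56.95, so the deposited scaling was kept. Of 12488 probe sets 66 were control sets. The others had 1 gene symbol (10833), several (396) or none (1193) in the platform annotation; 10817 gene IDs matched the GRCm38.p6 gene table, used for names, and 0 symbols changed.

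A constant of 3.1 (the 10th percentile of the table) was added before log2. Probe sets with mean log2 at or under the 25th percentile were left out, and 9316 were tested. The model, fitted to all 9 arrays with limma 3.58.1 (R 4.3.3), had a mean for each of the 3 days, 6 residual and 2.86 prior degrees of freedom, and Benjamini-Hochberg adjustment. The procedure was tested on simulated data. Python 3.11.15 with pandas 2.3.3, numpy 2.4.6 and matplotlib 3.10.9 made counts and plots.

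The members and lists were chosen with earlier results of these data known. Background came from 55 of 66 listed organ genes on the array. Lists were Hox cofactors, Polycomb, trithorax, inducers and borders of Hox expression, and markers of facial mesenchyme, oral epithelium, hindbrain, neurons, leukocytes, blood cells, and trunk and limb. Named were members called in any test, members above background on all 9 arrays, Hoxa2, members with non-overlapping days and a 2-fold change above background (there were 0), and called or brightest genes of lists; other genes were named after their values were seen. The 3 probe sets with several Hox symbols were not assigned to a gene. Alternatives changed the scaling, added value, filter, variance model, background line, probe set choice and arrays. Arrays of different days that shared a replicate number had residual correlations of 0.19 to 0.42 over 9 pairs. Those with different numbers had -0.29 to -0.02 over 18 pairs. The replicate numbers were therefore read as pairing the arrays across days, and a block fit on the number was run as an alternative. SEs, p-values and counts of calls printed without the name of an alternative came from the unpaired fit. On GD14 against GD12 the block fit passed 624 probe sets and the unpaired fit 401. At an unadjusted limma p under 0.05 the block fit held 3 or 4 of the 17 tested members in each test, and the unpaired fit 2.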

Additional observations from a re-analysis of the deposited data

How the results depend on the processing

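With the replicate number as a block, 0 Hox genes passed in each of the 5 tests, as without it, and the smallest adjusted p was 0.0565 for Hoxa9 over the 3 days. The counts of called Hox genes also stayed at 0 in the tests that could be run with plain probe sets alone, array weights, trended robust variances, the compared days alone, an added value of 1 or 11, either of the other scalings (quantile or median), and with all probe sets tested. A filter at the median of all probe sets left 2 members in the test, Hoxa4 and Hoxb8, and 0 passed. With every Hox probe set counted, or with the mean of the sets of a gene, the count was 1 on GD14 against GD12 and 1 over the 3 days, each time through Hoxd8. Leaving out single arrays gave counts of 0 to 1 for GD13 against GD12, for GD14 against GD12 and over the 3 days, through Hoxb5 without GD13 replicate 2 and Hoxd1 without GD13 replicate 3, and 0 for the other tests. The number of Hox genes above background on GD12, GD13 and GD14 depended on the line. It was 12, 13 and 10 at the 25th percentile of all probe sets (2 of them paralogs 9 to 13 on the day with most), 4, 6 and 5 at the 75th percentile of the organ genes, 2, 2 and 2 at the median of all probe sets, and 1, 1 and 1 at the 95th percentile of the organ genes. At the 25th percentile 8 Hox genes (25.8%) lay above it on all 9 arrays, against 72.2% of all genes and 30.9% of the organ genes. By day, 6300, 6401 and 6380 of 8251 genes and 26, 25 and 21 of 55 organ genes were above that line. At the 75th percentile of the organ genes these counts were 5167, 5269 and 5270, and 8, 10 and 8. They were 4494, 4595 and 4583, and 7, 7 and 7, at the median of all probe sets. At the 95th percentile of the organ genes they were 3408, 3449 and 3445, and 0, 1 and 3. The GD14 count was 2 with a line set on each array, with at least 2 of 3 arrays, with the day mean, and without GD14 replicate 1, and 1 to 2 over the omissions of single arrays. The number was 0 on each day with plain sets, an alternative chosen after the data were seen that leaves out Hoxa6, Hoxb8 and Hoxc9. Quantile normalization and median scaling left the 3 counts at 2, 2 and 1. Low signal over background limits every statement on the members under the line.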

Other observations

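Beside the set annotated to Hoxb7 and Hoxb8, the other two probe sets with more than 1 Hox symbol had medians of 6.7 and 17.2 and exceeded background on no array. A pair of sets for Hoxa11os, the transcript antisense to Hoxa11, had medians of 3.6 and 28.8 and exceeded it on none.

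The second array of each day had the highest median over the Hox genes. It was 15.9, 17.0 and 17.1 on the second arrays of GD12, GD13 and GD14, against 6.7 to 13.9 on the other 6 arrays. For 7 of 31 members (22.6%), Hoxa4 among them, the second array was the highest within each of the 3 days, against 11.4% of all genes, and the second arrays also had the highest median over all probe sets of their day (52.1, 55.15 and 56.95).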
